A study of Caenorhabditis elegans with 2 samples.

Results

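The peaks described here are those of chromosome III of Caenorhabditis elegans among the strongest 5000 of a ChIP-seq of the transcription factor GMEB-2, away from tRNA and snoRNA genes. They were chosen by the authors' joint signal of both replicates and by position. A member had a joint rank of 5000 or better and its summit more than 200 bp from the body of any tRNA or snoRNA gene. The rule found 915 members, out of 4635 such peaks on all 6 chromosomes and 30000 peaks in the joint list. Another 45 of the top 5000 peaks on III lay near tRNA or snoRNA genes and were left out. The number of members on III was part of how they were chosen, so that number and its excess are given as a description with no test.

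The samples were whole late embryos of mixed sex, collected 5 h after synchronization by egg bleaching, in 2 biological replicates of 1 group. The strain, OP622, carries the mutation unc-119(tm4063) on III and the transgene wgIs622, from which GMEB-2 is made with a C-terminal GFP-FLAG tag. The same tagged line supplied both replicates, and the precipitation used an antibody to GFP after sonication. No second condition or untagged strain was analysed here, and the labels do not give the insertion site of the transgene. The labels list more than one sequencer model for replicate 2 and none for replicate 1. Whole embryos hold all embryonic tissues, so a peak cannot be placed in a cell type.

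GMEB-2 belongs to a small family of nuclear proteins related to the vertebrate glucocorticoid modulatory element binding proteins, which bind short DNA words containing CG through a KDWK (SAND) domain. Promoters in the worm are compact, and neighbouring genes on opposite strands often share one stretch of upstream DNA. The autosomes of the worm have gene-dense central regions with many broadly expressed genes and more repeat-rich arms toward both ends.

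Sequence windows reaching 100 bp to either side of the summit show the kinds of DNA at the strongest members, from the genome assembly WBcel235 (RefSeq), which is the build ce11 of the peak lists. The first 3 are at promoters and the other 2 outside them, all picked after their values were seen. Capitals mark any of 4 words on either strand, which are the word ACGCGC, the word GCGCAC, the word CGCGCA and the word CGCAAG. These words were named earlier from these same peaks, so their presence is a description.
K12H4.5 (chrIII:8043865-8044065, plus strand): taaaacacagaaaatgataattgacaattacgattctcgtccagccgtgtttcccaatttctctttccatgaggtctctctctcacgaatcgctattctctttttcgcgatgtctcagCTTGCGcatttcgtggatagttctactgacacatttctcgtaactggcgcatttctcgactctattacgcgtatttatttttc
atx-2 (chrIII:10461225-10461425, plus strand): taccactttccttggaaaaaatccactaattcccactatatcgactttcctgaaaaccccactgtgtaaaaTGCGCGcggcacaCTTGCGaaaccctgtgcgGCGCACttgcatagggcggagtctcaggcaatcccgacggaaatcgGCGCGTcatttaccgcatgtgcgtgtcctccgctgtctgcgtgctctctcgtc
nmad-1 (chrIII:5555032-5555232, plus strand): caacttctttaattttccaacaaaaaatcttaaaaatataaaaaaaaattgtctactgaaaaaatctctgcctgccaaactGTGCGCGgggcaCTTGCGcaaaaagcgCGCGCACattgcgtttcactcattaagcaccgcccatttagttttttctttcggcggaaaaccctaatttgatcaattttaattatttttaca
fbxa-55 (chrIII:931509-931709, plus strand): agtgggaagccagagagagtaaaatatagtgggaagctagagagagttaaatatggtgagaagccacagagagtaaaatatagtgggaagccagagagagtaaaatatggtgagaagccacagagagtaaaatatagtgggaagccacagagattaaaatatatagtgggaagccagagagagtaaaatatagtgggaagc
mvk-1 (chrIII:6133375-6133575, plus strand): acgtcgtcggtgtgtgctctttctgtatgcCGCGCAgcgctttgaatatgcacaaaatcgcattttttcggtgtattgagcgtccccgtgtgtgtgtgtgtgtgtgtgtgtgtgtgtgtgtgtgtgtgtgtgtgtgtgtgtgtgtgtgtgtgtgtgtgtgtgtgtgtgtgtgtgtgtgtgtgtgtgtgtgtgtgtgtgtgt
The atx-2 window held all 4 words and the nmad-1 window 3 of them, while the K12H4.5 window held 1. The fbxa-55 window is a tandem repeat of a short unit, and the mvk-1 window runs into a long GT repeat.

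The strongest member lay 522 bp upstream of the annotated 5′ end of K12H4.5. Its signal was 320 in the list of replicate 1 and 397 in the list of replicate 2, where it ranked 3 and 7, and 716 in the joint list, where it ranked 6. Signal is the authors' own value for each peak against their control, and each list has its own scale, so only ranks can be set side by side between lists. By rank this member was near the top of both replicates.

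The second member lay 64 bp upstream of atx-2, which encodes the worm relative of the RNA-binding protein ataxin-2, and within the promoter window of ecps-1 on the other strand. A promoter window is taken here as 1000 bp upstream to 500 bp downstream of the annotated 5′ end of a protein-coding gene. The atx-2 peak had a signal of 211 in replicate 1 (rank 13), 310 in replicate 2 (rank 10) and 516 in the joint list (rank 12). The member upstream of rpl-3, a protein of the large cytosolic ribosomal subunit, had 192 in replicate 1 (rank 18), 240 in replicate 2 (rank 40) and 436 jointly. These 2 promoters, like that of K12H4.5, ranked in the first 40 of each replicate taken alone.

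The fourth member had a signal of 150 in replicate 1 and 281 in replicate 2 and lay within the promoter window of M01F1.9, inside an intron of the neighbouring gene M01F1.8. The member 66 bp upstream of idhg-1, which encodes a subunit of the mitochondrial isocitrate dehydrogenase, had 136 and 247. The member 198 bp upstream of nmad-1 had 130 and 191, and also lay in the promoter window of hach-1, a gene for an enzyme of valine breakdown. The member 56 bp upstream of tasp-1, which encodes the worm relative of the protease taspase 1, had 122 and 214. All 4 stood at joint ranks between 25 and 60.

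The other 12 of the 25 strongest members that lay at promoters had joint signals from 165 to 317. The member at tba-7, an alpha-tubulin gene, had a signal of 138 in replicate 1 and 176 in replicate 2, and that at sms-3, a sphingomyelin synthase gene, 65.8 and 138. The others were at C46F11.4, C16C10.4, R148.3, ccdc-47, rpl-35, mtss-1, ddp-1, Y22D7AL.10, swsn-3 and cbp-1. The member at ddp-1, a small chaperone of mitochondrial protein import, had a signal of 94.3 in replicate 1 and 146 in replicate 2. The member at Y22D7AL.10, which is shared with the mitochondrial chaperonin gene hsp-60 on the other strand, had 63.0 and 140. The member at swsn-3, a component of the SWI/SNF chromatin remodelling complex, had 70.9 and 113, and that at cbp-1, the CBP/p300 histone acetyltransferase, 47.4 and 129. The cbp-1 member, with its summit 884 bp upstream, ranked 449 in replicate 1 and 147 in replicate 2, the widest spread of ranks among the 25 strongest.

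**Figure D1:**
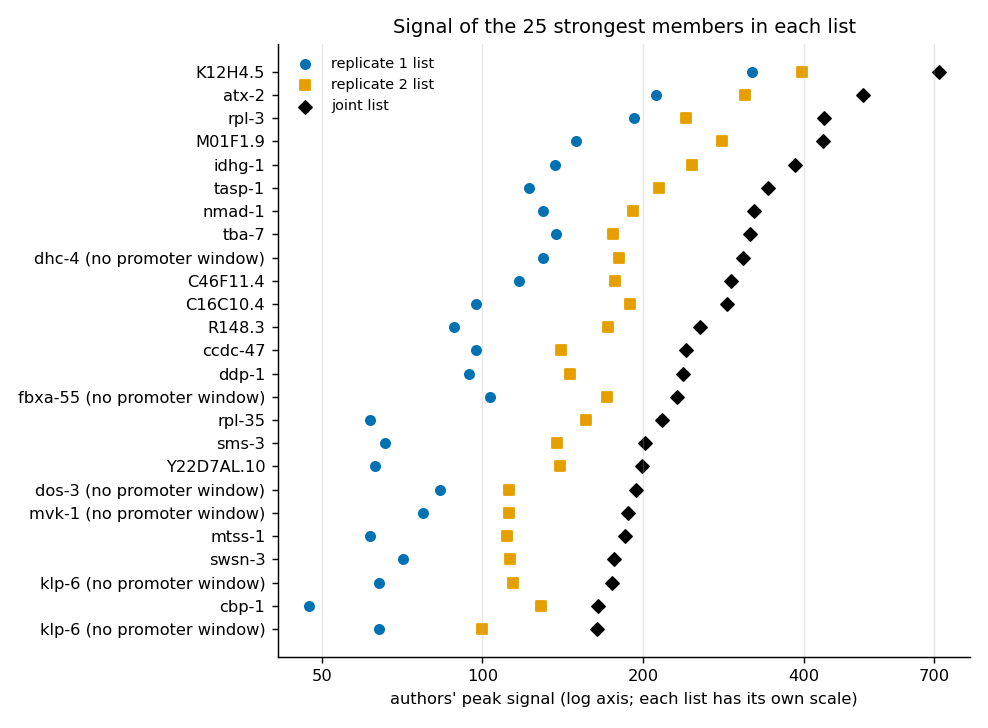
Authors' peak signal (log axis) of the 25 strongest members of chromosome III in the replicate 1, replicate 2 and joint lists. Each row is a peak named by its nearest target or gene, and 6 of the 25 lie in no promoter window. The strongest, at K12H4.5, has 320, 397 and 716.

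Of these 25 members, 6 lay outside promoter windows. The strongest, in an intron of the dynein heavy chain gene dhc-4, had a signal of 130 in replicate 1 and 180 in replicate 2, and its summit was within 200 bp of an snRNA gene. The pair in klp-6, a kinesin gene, had joint signals of 175 and 164 and summits near srpr-2.2, a gene of the signal recognition particle RNA. Both klp-6 summits match the same replicate 1 peak, so they are not separate observations there. The member 1813 bp from fbxa-55 (joint signal 232) and the one in an intron of the mevalonate kinase gene mvk-1 (188) lay in the repeats printed above, and dos-3 (194), named for a Notch ligand-like protein, held its summit in a coding exon.

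Of the members, 17 had a joint signal over 200 and 505 a signal under 60, with a median of 58.5. The other chromosomes had a similar median, between 58.5 and 59.8. The threshold of rank 5000 fell inside a dense run of values. The last 5 members, at smg-6, gly-11, R10E4.1, klp-20 and mml-1, had signals between 50.14 and 50.17, and the next 5 peaks on III below it, at gip-1, pqn-80, ucr-1, ceh-43 and Y75B8A.8, had 50.05 to 50.08. For 793 of the 915 members the authors' deposited -log10 q was under 2, and per the labels the relaxed list holds background as well as peaks. The 93 members with a joint signal of 91.8 or more are the ones that also stand in the authors' stricter list, which is cut by the irreproducible discovery rate (IDR) and forms the top of the joint list. Below, members are set out in 4 ranges of rank: those 93 (the IDR range), those with signals from 71.9 up to it (97 members), those from there to rank 2500 (229 members) and those past rank 2500 (496 members).

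Chromosome III held 19.7% of the peaks away from tRNA and snoRNA genes (95% exact Clopper-Pearson interval 18.6% to 20.9%), while it carries 13.2% of the protein-coding genes. That is 915 peaks where 613 would match its gene share, a ratio of 1.49 (1.41 to 1.58). The ratio was 1.16 on I, 1.11 on X, 1.06 on II, 0.880 on IV and 0.625 on V. III also had the most peaks per Mb, 66.4 against 34.6 to 55.4 on the other chromosomes. Intervals here cover counting error only, treat peaks as independent although they share 2 libraries, and take no account of read depth, which is unknown.

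The ratio was between 1.40 and 1.65 over the 5 ways of setting the expected share. Against chromosome length it was 1.44, where II followed with 1.20. Against protein-coding genes outside chemoreceptors, C-type lectins, F-box proteins and nuclear hormone receptors it was 1.40. These 4 families make up 4.58% of the genes of III and 24.6% of those of V, so leaving them out moved V from 0.625 to 0.740. III stood highest of the 6 chromosomes under each of the 5.

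The ratio was above 1 for III at every rank. In the IDR range the 93 members gave a ratio of 1.78 (1.47 to 2.12). It was 1.29 (1.06 to 1.54) in the second range, 1.44 in the third and 1.52 in the last. Below the threshold of the rule, III still had 977 peaks between ranks 5000 and 10000, a ratio of 1.497, and 1735 between ranks 20000 and 30000, a ratio of 1.32 (1.26 to 1.38). The highest of the other 5 chromosomes reached between 1.16 and 1.24 over the same ranges. A share of peaks above its gene share was therefore measured for III in the weakest 10000 ranks as well as in its top, and the part that background reads have in it was not tested.

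**Figure D2:**
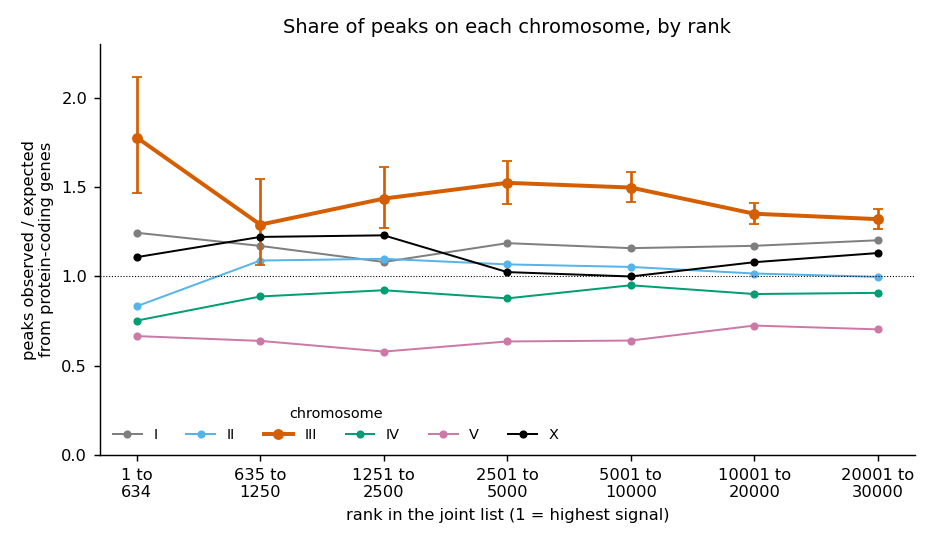
Peaks observed over the number expected from protein-coding genes (vertical axis) for each chromosome and rank range of the joint list (horizontal axis), with 95% exact intervals for III. III is the highest line in all 7 ranges, from 1.78 in the first to 1.32 in the last.

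Each replicate taken alone gave a like share. In the list of replicate 1, III held 905 of 4661 top peaks away from tRNA and snoRNA genes, a ratio of 1.47. In the list of replicate 2 it held 896 of 4639, a ratio of 1.46. The joint list is made from the same reads, so these values are not independent of the rule.

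Member by member the replicates were close only at the top. Of the 915 members, 779 (85.1%) had a summit within 200 bp in both replicate lists of 30000 peaks, and 230 (25.1%, 22.4% to 28.1%) had one in the top 5000 of both. On the other chromosomes the latter share was 27.1%. For III it was 92.5% in the IDR range, 62.9% and 26.6% in the next ranges, and 4.44% past joint rank 2500. No peak of replicate 1 was near 109 of the members, and no peak of replicate 2 near 28. A typical member past rank 2500 was thus in the top 5000 of 1 replicate or neither.

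**Figure D3:**
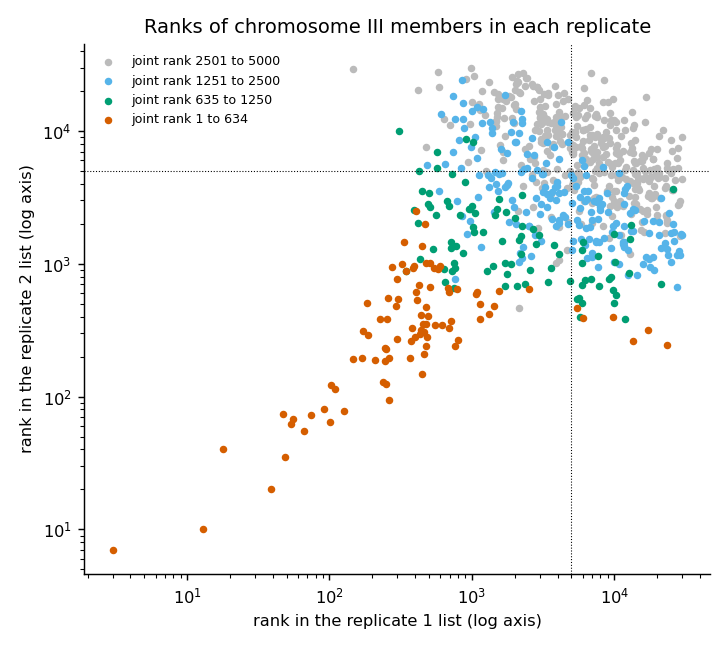
Rank of each chromosome III member in the replicate 1 list (horizontal, log axis) and the replicate 2 list (vertical, log axis), for the 779 found in both; dotted lines mark rank 5000. Members of the IDR range (orange) gather at low ranks in both lists, and those past joint rank 2500 (grey) lie mostly beyond 5000 in at least 1 list.

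Promoters held 315 of the 915 members (34.4%, 31.3% to 37.6%), against 36.0% of the peaks on the other chromosomes, which ranged from 32.7% on X to 39.6% on I. Promoter windows cover 24.7% of the length of III. The excess was present in both classes: promoter peaks on III were 1.44 times the number expected and the other peaks 1.52 times. The median summit of the promoter members lay at an offset of -168 bp from the 5′ end, with quartiles at -456.5 and -24.5 bp, and 78.4% lay upstream.

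The promoter share fell with rank. It was 67.7% (63 of 93) in the IDR range, 40.2% and 32.3% in the next ranges, and 28.0% past rank 2500. Among peaks of III outside the rule it was 24.96% between ranks 20000 and 30000, close to the 24.7% of III that the windows cover. The other chromosomes together followed the same course, with 65.0%, 40.5%, 34.8% and 31.2% over the same 4 ranges.

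Promoters on opposite strands were shared by 81 of the 315 promoter members (25.7%, 21.0% to 30.9%). In the IDR range the share was 39.7%. Over all ranks it was 19.99% on the other chromosomes, with 27.04% on I and 5.22% on X. Members at promoters on both strands included those of atx-2 and ecps-1, nmad-1 and hach-1, and spcs-2 and mrg-1, the latter pair, a signal peptidase subunit and a chromodomain protein, named after its values were seen.

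Counted by genes, 396 of the 2640 protein-coding genes of III (15%, 13.7% to 16.4%) had a member in the promoter window. The share was 9.09% of the 17333 genes of the other chromosomes, and by chromosome 13.0% on I, 10.8% on II, 8.64% on X, 8.29% on IV and 6.41% on V. With members of the IDR range alone, 94 genes of III (3.56%) had one, against 1.63% elsewhere. The rule used these peaks and their chromosome, so nothing further is read from these shares.

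By gene list, all counts below are to be read against the 15% of all genes of III with a member, and a share elsewhere is that of the list's genes on the other chromosomes. Of 18 cytosolic ribosomal protein genes on III, 9 had a member (elsewhere 41.3%), and the strongest were rpl-3 (joint signal 436), rpl-35 (217) and rps-1 (151). Of 22 mitochondrial ribosomal protein genes, 7 had one (elsewhere 20.8%), led by mrpl-12 (123). The translation factors had 3 of 6 (elsewhere 27.3%), with eef-1A.1, an elongation factor, at 131 and eif-3.D, an initiation factor subunit, at 124. The aminoacyl-tRNA synthetases had 2 of 6 (elsewhere 12%).

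Oxidative phosphorylation genes had 6 of 15 (elsewhere 30.2%), with the cytochrome oxidase subunit genes cox-5A (joint signal 118) and cox-6A (111) the strongest, and mitochondrial import genes 2 of 5 (elsewhere 21.4%), with ddp-1 at 238. Chromatin regulators had 9 of 24 (elsewhere 23.5%), led by swsn-3 (176), cbp-1 (165) and the methyltransferase gene set-16 (102). Ubiquitin and cullin ligase genes had 2 of 7 (elsewhere 14.9%) and histone genes 1 of 3 (elsewhere 14.5%). The proteasome had 2 of 8 (elsewhere 24%).

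In other lists the share on III was lower than elsewhere. Splicing factors had 3 of 12 (elsewhere 32.5%), led by prp-19 (144) and mog-3 (96.1), and chaperones 3 of 12 (elsewhere 28.3%), led by hsp-60 (199) and the prefoldin subunit gene pfd-5 (100.4). The RNA polymerase, TBP-associated factor and Mediator genes had 3 of 19 (elsewhere 21.6%), with mdt-19 (138) and taf-12 (130). Cell division genes had 2 of 13 (elsewhere 21.2%), led by the replication factor gene mcm-10 (100.3), and nuclear pore genes 1 of 8 (elsewhere 34.4%). These 3 last lists were near or under the share of all genes of III.

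Lists of genes with restricted expression gave mixed counts. None of 31 chemoreceptor genes and none of 14 C-type lectin genes on III had a member (elsewhere 1.56% and 3.54%), and F-box genes had 5 of 68 (elsewhere 5.51%), with fbxb-85 (136), which shares its promoter with hex-3, the strongest. Homeobox genes had 3 of 17 (17.6%, elsewhere 7.25%), near the share of all genes of III. They were ceh-13 (69.1) and nob-1 (60.6), which are Hox genes, and ceh-20 (55.3), a Hox cofactor gene. Cuticle collagens had 2 of 13 (15.4%, elsewhere 4.49%), also near that share, and nuclear hormone receptors 1 of 8 (elsewhere 6.51%). None of 5 neuron markers (elsewhere 5.88%), 2 germline markers (elsewhere 0%) or 1 intestine marker (elsewhere 0%) on III had a member. The 1 GMEB family gene on III had none (elsewhere 1 of 2). The 1 muscle marker there, the myosin light chain gene mlc-3, had one at 84.9 (elsewhere 38.9%). No peak of replicate 1 lay within 200 bp of the mlc-3 member. The lists are symbol patterns and the counts are small.

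The share of genes in some of these lists was higher on III than on the other chromosomes pooled, but close to that of I. Cytosolic and mitochondrial ribosomal proteins, translation factors, splicing factors, chaperones, oxidative phosphorylation, mitochondrial import and the proteasome together hold 98 genes of III, 3.71% of its genes. Elsewhere they hold 1.90% of the genes, by chromosome from 0.586% on X to 3.65% on I. Of the 98 on III, 35 had a member, to be read against the 15% of all genes of III. Elsewhere 98 of 329 had a peak, to be read against the 9.09% of all genes there. These 8 lists were put together with earlier results known, and their part in the excess on III was not tested. Genes closely downstream of another gene on the same strand, within 500 bp, were 22.8% of the genes of III and 20.4% (62 of 304) of the nearest targets of its members.

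Along the chromosome, members were sparsest in the middle. Cut into 5 stretches of equal length, III held 196, 207, 126, 145 and 241 members from left to right, while the protein-coding genes there numbered 443, 557, 613, 607 and 420. The ratio of members to the number expected from genes was 1.91, 1.60, 0.886, 1.03 and 2.47. Over the other 4 autosomes pooled it was 0.994, 0.874, 0.640, 0.814 and 1.25. III was above this pooled value in all 5 stretches, but its own ratio was near or under 1 in the third and the fourth. The highest of the other autosomes was IV in the first stretch (1.82), I in the second (1.40) and II in the third (0.819). In the fourth it was I (1.31), and in the last II (1.77). Only in the fourth stretch did another autosome stand above III.

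In 500 kb bins III had between 15 and 51 members, with a median of 35, over 27 complete bins. The bin with the most began at position 11000001 and held 66 genes. Of the 27 bins, 17 held over 30 members, against 12 of 30 on II and 9 of 30 on I. Across the bins of III the Pearson correlation between genes and members was -0.580, and between genes and promoter members 0.227. On the other chromosomes the first ranged from -0.701 on V to 0.180 on I, with -0.593 on II. The second ranged from -0.355 on V to 0.339 on I. All are descriptions over neighbouring bins of single chromosomes. Without the last of the 5 stretches and the genes there, the ratio for III was 1.35.

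**Figure D4:**
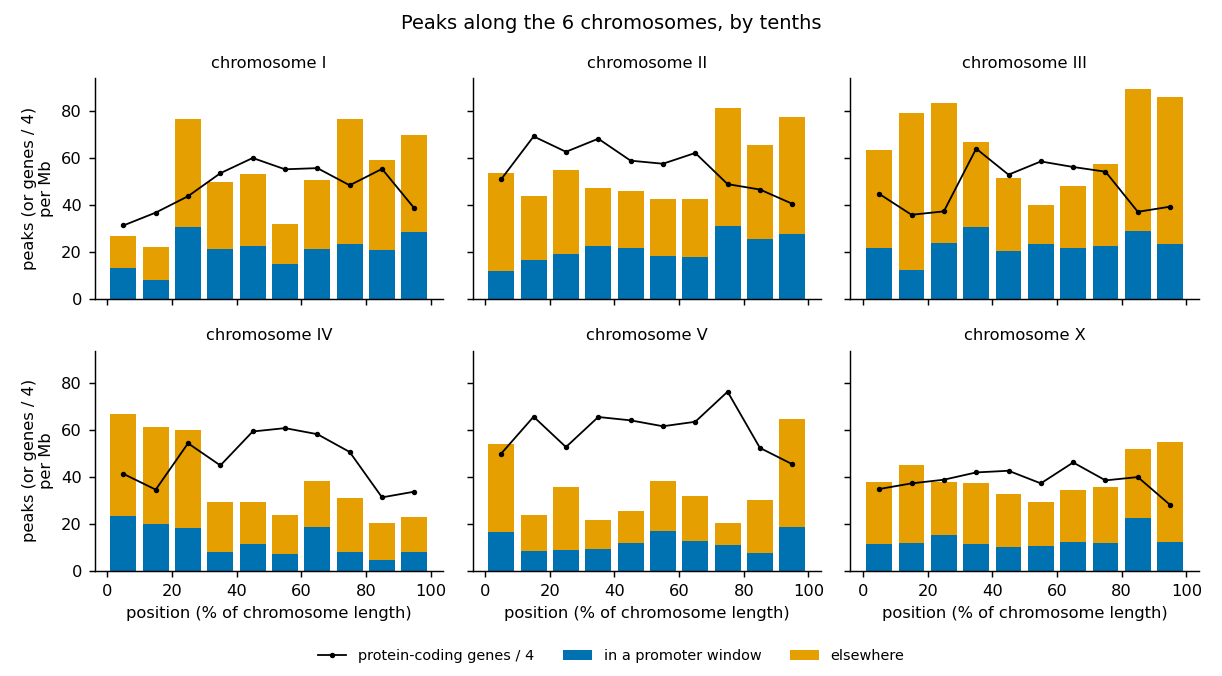
Peaks per Mb in promoter windows (blue) and elsewhere (orange) in 10 stretches of equal length of each chromosome, with protein-coding genes per Mb divided by 4 (black line). On III the densest are the ninth (89.2 per Mb) and the last (85.6 per Mb), and the sixth has the fewest (39.9 per Mb).

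The variation along the chromosome was larger for members outside promoters. Their ratio to the number expected was 2.26 in the first of the 5 stretches, 0.722 in the middle one and 2.70 in the last. For promoter members it was 1.28, 1.18 and 2.07. The promoter share of members was 24.0% in the first stretch, 47.6% in the middle and 29.9% in the last. The promoter members thus varied less along the chromosome than the others, with their highest ratio in the last stretch.

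Position also changed with rank. The first and last of the 5 stretches, 40% of the length of III, held 36.6% of the members of the IDR range and 51.4% of those past rank 2500. Among peaks of III below the rule they held 52.3% between ranks 5000 and 10000 and 46.7% between ranks 20000 and 30000. On the other autosomes pooled the share went from 32.5% in the IDR range to 45.5% between ranks 2500 and 5000. Taken singly, I, II and V rose between these ranges. On IV the share instead went from 55.1% to 45.1%, and on X from 50% to 47.8%. The members of the IDR range, by stretch from left to right, numbered 13, 26, 12, 21 and 21.

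**Figure D5:**
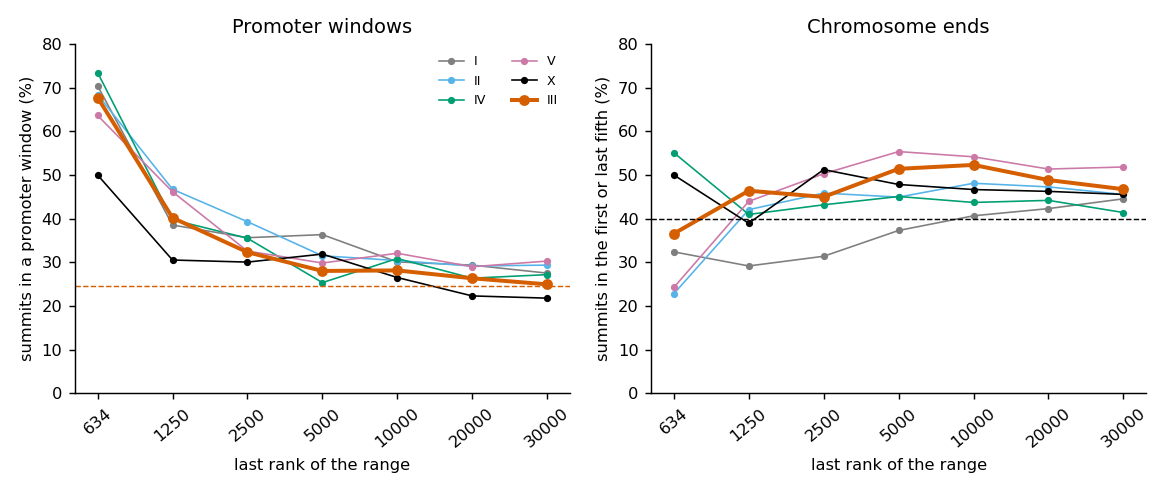
Percent of summits in a promoter window (left) and in the first or last 20% of the chromosome (right) against the last rank of each range, by chromosome. The promoter share of III falls from 67.7% to 24.96%, near the 24.7% of its length in windows (dashed, left), and its share at the ends goes from 36.6% to 51.4% within the members; 40% of the length lies there (dashed, right).

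Outside promoters, 600 members lay mostly within genes. Introns held 308 of them (51.3%, 47.3% to 55.4%), against 44.2% of such peaks on the other chromosomes. Introns make up 38.7% of III and between 29.0% and 39.96% of the other chromosomes. Coding exons held 92 members (15.3%, elsewhere 15.6%) and make up 25.7% of III. Intergenic DNA held 175 (29.2%, elsewhere 35.6%) and makes up 30.4% of III. These parts of III are of its whole length, promoter windows included, so the matching shares are those of all 915 members. Of all members, introns held 39.6%, near the intron part of III. Coding exons held 14.3%, below their part, and intergenic DNA 42.2%, above its part. Some genes hosted several members each, such as the 9 within pqn-41 (33.6 kb), the 7 within cox-6B (87.2 kb) and the 6 within the phosphatase gene ptp-1 (21.3 kb). The shorter gene zmp-2 (6.48 kb) held 4. These genes were named after their values were seen, and their counts are to be read against the 66.4 members per Mb of III as a whole.

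A few of the stronger members outside promoters lay at small RNA genes that the rule did not remove. All 4 of the annotated srpr genes on III, which encode RNA of the signal recognition particle, had a member within 200 bp, the best at joint ranks 200, 251, 298 and 357. The 1 srpr gene elsewhere had a peak at rank 3842. Of 13 snRNA genes on III 5 had a member, and of 116 elsewhere 12 had a peak. Some snRNA genes at different positions carry the same symbol in the annotation, and how alike the copies are was not measured. The handling of reads with several matches is not given in the sources used here. These genes were singled out after their values were seen, and they account for 11 of the 915 members.

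Most members lay in unique DNA. In the median member window all 31-base words occurred once in the nuclear genome. Under 50% of the words were unique in 20 of the 915 windows (2.19%), as against 2.12% of the peak windows elsewhere and 7.85% of evenly spaced windows of III. Among the 30 members of the IDR range outside promoters, 3 windows (10.0%) were of this kind, and among the 63 at promoters 2 (3.17%). Elsewhere the shares in that range were similar, 11.3% (12 of 106) outside promoters and 3.05% (6 of 197) at promoters. In the third range, down to rank 2500, 9 of the 155 members outside promoters (5.81%, 2.69% to 10.7%) were of this kind. None of the 74 at promoters was. Elsewhere the share outside promoters in that range was 1.41% (0.647% to 2.66%), by chromosome from 0% on I and II to 5.08% on IV. Past rank 2500 it was 0.840% on III and 1.48% elsewhere.

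The GC-rich words were found more often in stronger promoter members. Any of the 4 words was in 55.6% (35 of 63) of the windows of promoter members in the IDR range, 35.9% and 25.7% in the next ranges, and 11.5% past rank 2500. The interval of the last value, 6.72% to 18.02%, holds the 14.5% of equal windows at all 2640 promoters of III. On the other chromosomes the shares were 61.9% in the first range and 22.2% in the last. Of members outside promoters 16.0% had a word.

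Over all ranks, 26.7% (84 of 315) of the promoter members had one of these words, against 32.4% on the other chromosomes. TACGTA, a core recognized by the vertebrate relatives, was in 2 of the 315 promoter windows (0.635%) and in 2.05% of all promoters of III. Word counts depend on base composition: the member windows had a mean GC content of 42.5%, those of other chromosomes 43.4%, and all promoter windows of III 33.8%. Chromosome III as a whole is 35.7% GC.

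Loci on III tied to the strain and to the factor held only weak members. Within 10 kb of unc-119, the gene on III that is mutated in the strain and commonly used as a rescue marker, lay 14 peaks of the joint list. Of these, 1 was in the top 5000, at rank 2820 with a signal of 57.8 and outside the promoter window. That 1 peak is to be read against the 66.4 members per Mb of III as a whole. Whether 14 peaks are many for such a stretch was not tested. The best peak near gmeb-3, a family member on III, ranked 4942 with a signal of 50.3 and also lay outside the promoter. Neither was among the stronger members.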

How the data were processed

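The authors deposited peak lists on ce11 and ce10 from anti-GFP ChIP-seq of 2 replicates, called per sample and on both samples together, against a control alignment, per the labels. For the aligner, the peak caller and the IDR cut-off, the tool or value is not given in the sources used here. The authors' signal was deposited for every peak and served for ranking, and the deposited -log10 q value only to describe members. Read depth is unknown.

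Peaks were ranked by joint signal on ce11, ties by file order. Genes and small RNA genes came from Ensembl 115 (WBcel235) and sequence from RefSeq. Exact Clopper-Pearson intervals at 95% cover counting error over peaks, windows or genes. No test was made. The members and lists were chosen with earlier results of these data known. Named are the 25 strongest members, up to 3 targets per list, the 5 peaks to either side of the threshold, unc-119 and the GMEB genes, and others only where said; gmeb-1 and gmeb-2 are not on III. Python 3.11.15, pandas 2.3.3, NumPy 2.4.6, SciPy 1.17.1 and matplotlib 3.10.9 were used, and the counting steps were tested on simulated data. No columns of per-sample values were left out. Some sequence windows of named members are not reported here.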

Additional observations from a re-analysis of the deposited data

How the results depend on the processing

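No paired analysis was possible because there was 1 group and no test. The ratio on III was 1.78 for the IDR list, 1.65 against all annotated genes other than piRNA genes, 1.40 against genes outside the 4 large families and 1.35 without the last 20% of III; each other setting left it within its interval. With the lists of replicate 1 or replicate 2 alone it was 1.46 to 1.47, and the promoter share on the other chromosomes was 34.4% to 35.3%. For the IDR list and the top 2500 and 10000 peaks the promoter share of III was 67.7%, 42.005% and 31.2% (elsewhere 65.0%, 41.5% and 32.98%), and the genes of III with a peak were 3.56%, 8.94% and 25.8% (elsewhere 1.63%, 5.24% and 16.1%). For the IDR list and the top 2500, the share at promoters on both strands was 39.7% and 31.8%, and that in the middle 60% of the length 63.4% and 56.6%. For the IDR list, 23.5% of peaks were on III, and the ratio was 1.83 at promoters and 1.67 elsewhere. With windows of 500 bp to either side, or of 250 bp upstream to 50 bp downstream, the promoter share was 26.99% or 14.0% (elsewhere 28.3% or 14.3%) and genes with a peak 11.3% or 5.68% (elsewhere 6.83% or 3.42%), with 15.6% at both strands for the narrower. Giving each peak to its nearest 5′ end left 11.5% and 7.40% of genes, and keeping tRNA and snoRNA peaks gave 9.57% of genes elsewhere. Matching replicate summits within 100 bp or 500 bp put 19.5% or 29.4% of members in both top 5000 lists. The causes of these shifts were not tested, beyond fewer or more peaks and narrower windows by construction. No setting tried brought the ratio on III to 1. Read depth is unknown, so faint members cannot be graded by it.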
